A study of Mus musculus with 2 samples.

Results

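The Hsd3b family holds the 3-beta-hydroxysteroid dehydrogenases and their closest relatives, and its members were followed here by symbol in whole kidney RNA of mice. The family was taken up because of its measured values: several members were chosen from the largest differences between these same libraries, so every difference below is a description and none is tested. Of 9 members named (*Hsd3b1* to *Hsd3b7*, *Gm4450* and *Gm10681*), 7 were listed among 19829 genes, and *Hsd3b1* and *Hsd3b6* were not analysed here. The 7 listed members are *Hsd3b2*, *Hsd3b3*, *Hsd3b4*, *Hsd3b5*, *Hsd3b7*, *Gm4450* and *Gm10681*.

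The libraries were 2, 1 per group, named WT+AKI and TG+AKI. WT+AKI came from kidneys of wild-type control mice, and TG+AKI from mice with an *Inmt* transgene active in proximal tubules. Per the study's methods, the mice of both groups were given voclosporin, a calcineurin inhibitor, each day at 30 mg/kg between 8 and 10 weeks of age. They then underwent ischemia and reperfusion (I/R) of the kidneys, which were harvested from 14-week-old mice. The methods name male mice for I/R. The time from I/R to harvest differs between the study's methods and a figure legend. The treatment label of both libraries names no treatment, the title of TG+AKI also speaks of a conditional knockout, and the number of animals behind each library is not given in the sources used here. The promoter that drives the transgene is not given in the sources used here, the wild-type controls were littermates, and the stock was C57BL/6. The genome build of the labels is mm10. The reads on genes numbered 38542764 for WT+AKI and 36427421 for TG+AKI. *Inmt*, the gene of the transgene, had 10.4 in the WT+AKI library against 403 in TG+AKI, in the direction of the labels. With 1 library per group, no difference has a replicate check. Values are normalized counts, close to reads per 1000000 of a scaled library, and brackets give 95% intervals of the counting error alone, from reads that carry no molecular identifiers.

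The 3-beta-hydroxysteroid dehydrogenases act on the ring carbon that carries the hydroxyl group of cholesterol. Those of the classical type turn pregnenolone into progesterone and dehydroepiandrosterone into androstenedione, a step without which no steroid hormone of the adrenal or gonad is made, and *Hsd3b1* is the form of these glands in the mouse. Other mouse forms are made in liver and kidney. *Hsd3b2* and *Hsd3b3* belong to the classical type, *Hsd3b4* and *Hsd3b5* work mainly as reductases of 3-ketosteroids and so inactivate hormones, and *Hsd3b7* acts on sterols of the bile acid pathway. *Gm4450* and *Gm10681* carry no gene name of their own. In kidney the proximal tubule is the known site of these enzymes.

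The coding sequences separate these types, and they also limit which reads can be told apart. All 8 members on chromosome 3 code with 1119 bases in 3 coding exons, and *Hsd3b7*, on chromosome 7, codes with 1107 bases in 6. The stretches below are the first 90 bases of the last coding exon, taken from the GENCODE annotation of GRCm38 on the minus strand and written 5′ to 3′. They are shown because they hold the difference between the types. Capitals mark bases that differ from *Hsd3b4*.
Hsd3b4, chr3:98500178-98500267: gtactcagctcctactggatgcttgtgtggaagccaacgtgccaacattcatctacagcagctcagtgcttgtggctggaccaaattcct
Hsd3b5, chr3:98619729-98619818: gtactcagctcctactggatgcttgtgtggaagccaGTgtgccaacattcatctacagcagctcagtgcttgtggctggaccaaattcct
Hsd3b2, chr3:98712228-98712317: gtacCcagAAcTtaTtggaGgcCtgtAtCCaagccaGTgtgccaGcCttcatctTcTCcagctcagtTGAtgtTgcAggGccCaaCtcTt
Hsd3b3, chr3:98742606-98742695: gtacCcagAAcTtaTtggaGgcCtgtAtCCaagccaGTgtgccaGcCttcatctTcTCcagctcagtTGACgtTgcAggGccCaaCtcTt
In this stretch *Gm4450* and *Gm10681* were identical to *Hsd3b4*, *Hsd3b5* differed from it by 2 bases, *Hsd3b2* by 26 and *Hsd3b3* by 27.

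Over the whole coding sequence *Gm10681* was identical to *Hsd3b4* and *Gm4450* differed from it at 4 of 1119 positions, an identity of 99.6%. *Hsd3b5* was 95.2% identical to *Hsd3b4*. *Hsd3b2* and *Hsd3b3* were 95.1% identical to each other but 81.5% and 81.0% identical to *Hsd3b4*. *Gm4450* and *Gm10681* thus sit beside the reductases by sequence. *Hsd3b7* was the distant member, at 52.6% identity to *Hsd3b4*.

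Reads averaged 100 bases, so each transcript was also cut into overlapping words of 100 bases and each word was searched in the transcripts of all other genes. Every word of *Hsd3b4* occurred in *Gm10681* and every word of *Gm10681* in *Hsd3b4*. Of the words of *Gm4450*, 71.9% were shared with both. *Hsd3b5* shared 7.79% of its words with *Hsd3b4*, *Hsd3b2* shared 7.09% with other genes, and the protein-coding transcript of *Hsd3b3* shared 14.9%. *Hsd3b2*, *Hsd3b3* and *Hsd3b5* can therefore be read as single genes, whereas reads of *Hsd3b4* and *Gm10681* cannot be assigned to one of them by sequence. How the authors' counting treated reads with several matches was not tested. *Hsd3b7* shared 93.7% of the words of its coding transcript with *Gm49388*, an overlapping gene model.

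**Figure D1:**
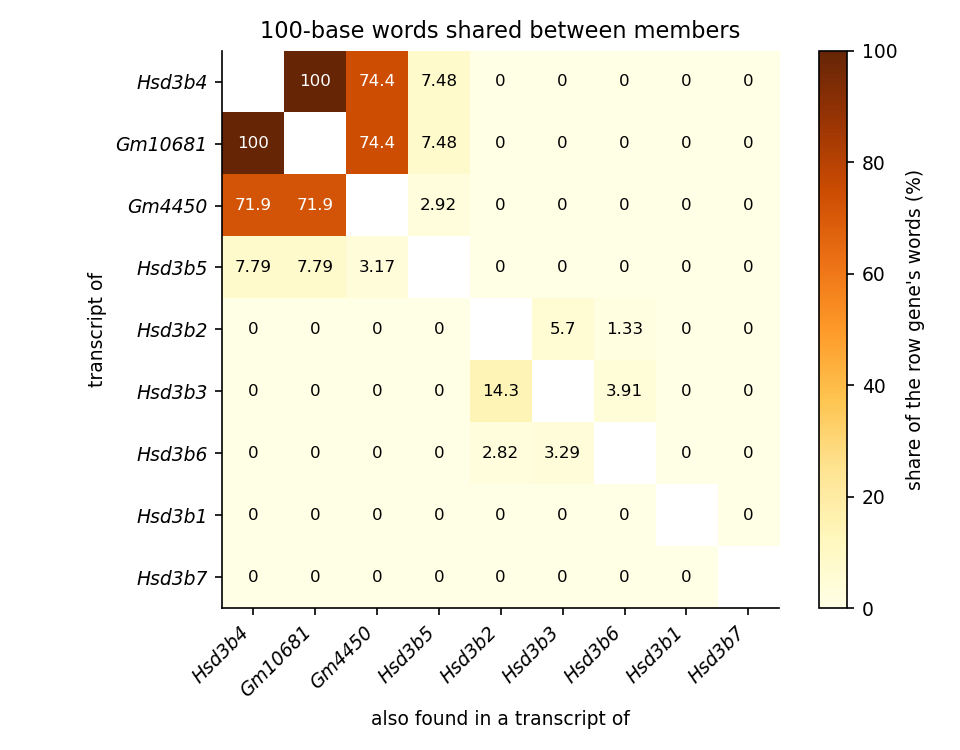
Share of the 100-base words of each row gene's longest protein-coding transcript that also occur in a transcript of the column gene, in percent, for the 9 members. *Hsd3b4* and *Gm10681* share every word, *Gm4450* shares 71.9% of its words with both, and *Hsd3b2*, *Hsd3b3* and *Hsd3b5* keep most words to themselves.

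The promoters followed the same grouping only in part. Shown are 130 bases before and 20 bases after the start site, from RefSeq on GRCm38.p6, minus strand, 5′ to 3′. All 9 members matched the promoter table. These 4 are printed because they hold the promoters of both types, and capitals mark a motif.
Gm4450, chr3:98457107-98457256: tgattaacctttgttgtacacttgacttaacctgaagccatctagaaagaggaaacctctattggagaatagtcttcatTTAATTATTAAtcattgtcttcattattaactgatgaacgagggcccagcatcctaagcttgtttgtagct
Hsd3b4, chr3:98510548-98510697: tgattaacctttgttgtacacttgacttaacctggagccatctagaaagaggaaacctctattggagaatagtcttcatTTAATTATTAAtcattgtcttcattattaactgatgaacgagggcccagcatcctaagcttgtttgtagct
Hsd3b2, chr3:98724524-98724673: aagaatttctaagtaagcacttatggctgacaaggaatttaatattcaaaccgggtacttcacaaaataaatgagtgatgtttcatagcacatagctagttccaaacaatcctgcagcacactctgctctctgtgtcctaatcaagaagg
Hsd3b3, chr3:98763109-98763258: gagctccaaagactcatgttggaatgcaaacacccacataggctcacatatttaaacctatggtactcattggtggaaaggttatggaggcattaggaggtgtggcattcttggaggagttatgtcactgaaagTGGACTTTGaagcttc
The capitals in *Gm4450* and *Hsd3b4* mark the palindrome TTAATNATTAA, and those in *Hsd3b3* the HNF4 site CAAAGTCCA on the other strand.

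In windows of 250 bases before to 50 after the start, the palindrome TTAATNATTAA began 51 bases before the start site of *Gm4450* and of *Hsd3b4* and 80 bases before that of *Gm10681*. The promoters of *Gm4450* and *Hsd3b4* were 98.7% identical, so these matches lie in near-copies of 1 sequence. Of 27025 genes with a promoter in the table, 0.141% held the palindrome. The HNF4 site began 4 bases into the transcript of *Hsd3b3*, and 0.555% of genes held it. The promoters of *Hsd3b2* and *Hsd3b3* were 44.5% identical, no closer than either to *Hsd3b7* (45.5% and 46.7%), although their coding sequences are close. That of *Hsd3b5* was 47.3% identical to that of *Hsd3b4*, 51.0% to that of *Hsd3b2* and 55.1% to that of *Hsd3b3*. Other motifs searched on both strands included the SF-1 site CAAGGTCA and the direct repeat AGGTCANAGGTCA, which no member held in this window and which 1.76% and 0.0481% of genes held. The TATA box TATAAA was found in 1 member, *Hsd3b4*, after its second start site, and in 15.7% of genes. A match describes letters, not a bound site.

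Of the classical enzymes, *Hsd3b2* had a value of 7.08 in the WT+AKI library against 123 in TG+AKI, from 300 and 4069 reads. The ratio was 17.4 [15.4 to 19.6], and on the log2(value + 1) scale the difference was 3.94. *Hsd3b3* had a value of 24.5 in the WT+AKI library against 94.2 in TG+AKI, from 1040 and 3118 reads, a ratio of 3.84 [3.58 to 4.12]. Both were thus higher in the transgenic library, but by unlike amounts. The ratio of *Hsd3b2* was 4.52 times that of *Hsd3b3* [3.95 to 5.19], so that *Hsd3b2* had fewer reads than *Hsd3b3* in WT+AKI, 0.288 for each read of *Hsd3b3*, and more in TG+AKI, 1.31 for each. *Hsd3b2* shared 5.70% of its 100-base words with *Hsd3b3*.

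Of the reductases and the copies beside them, *Hsd3b4* had a value of 24.2 in the WT+AKI library against 340 in TG+AKI, from 1027 and 11256 reads, a ratio of 14.0 [13.2 to 15.0]. *Gm10681* had 23.8 and 335, from 1007 and 11102 reads, with a ratio of 14.1 [13.2 to 15.1]. The reads of these 2 genes were near-equal, with 1.02 reads of *Hsd3b4* for each of *Gm10681* in the WT+AKI library against 1.01 in TG+AKI. Their transcripts share all words, so the pair is also given as a sum. Together they stood at 48.0 and 675, a ratio of 14.1 [13.4 to 14.7]. If shared reads were counted for both genes, this sum holds them more than once and its interval is too narrow.

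*Gm4450* had 16.6 in the WT+AKI library against 253 in TG+AKI, from 703 and 8378 reads, a ratio of 15.3 [14.1 to 16.5]. Its ratio was 1.09 times that of *Hsd3b4* [0.984 to 1.20], an interval that includes 1. *Hsd3b5*, the liver form of the male mouse, had the fewest reads, with a value of 0.991 in the WT+AKI library against 11.6 in TG+AKI, from 42 and 384 reads. Its ratio of 11.7 [8.50 to 16.5] was 0.834 times that of *Hsd3b4* [0.603 to 1.15]. *Hsd3b5* has most words to itself, and its ratio lay near those of the 3 near-identical genes.

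*Hsd3b7*, the bile acid enzyme, ran the other way. It had a value of 25.5 in the WT+AKI library against 14.4 in TG+AKI, from 1083 and 476 reads, a ratio of 0.563 [0.504 to 0.627]. On the log2(value + 1) scale its difference of -0.79 did not reach 2-fold, except with both libraries scaled to the same total, where it was -1.05. Most of its words also occur in *Gm49388*, so reads of that overlapping gene model may be part of its value.

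**Figure D2:**
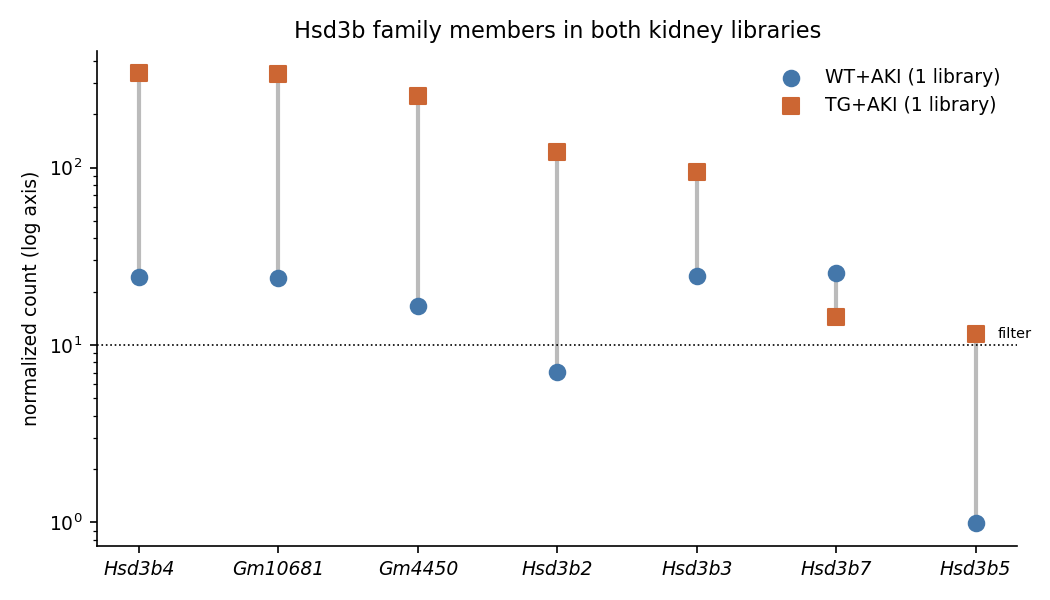
Normalized count of each listed member (log axis) in the WT+AKI library (circles) and the TG+AKI library (squares), 1 library each, with the dotted line at the filter value of 10. The 6 cluster members lie higher in TG+AKI, from 11.6 for *Hsd3b5* to 340 for *Hsd3b4*, and *Hsd3b7* lies lower, at 14.4 against 25.5.

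A gene was counted as higher or lower at 2-fold or more on the log2(value + 1) scale if either library reached a value of 10, which held for 10294 genes. All 7 listed members passed that filter, *Hsd3b2* and *Hsd3b5* through TG+AKI alone. Of the 7, 6 were higher in TG+AKI and 0 lower, beside 5.74% of all compared genes that were higher and 7.12% that were lower. Since the family was picked from this contrast, the count says nothing further about it. In the order of differences over all compared genes, *Hsd3b2* was number 6, *Gm4450* number 9, *Gm10681* number 12, *Hsd3b4* number 13, *Hsd3b5* number 44 and *Hsd3b3* number 129.

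Summed, the 7 members stood at 123 in the WT+AKI library against 1171 in TG+AKI, from 5202 and 38783 reads, a ratio of 9.54 [9.27 to 9.83]. The 6 members of the cluster stood at 97.2 and 1157, a ratio of 11.9 [11.5 to 12.3]. With *Hsd3b4* and *Gm10681* counted once, as the mean of both, these ratios were 8.44 and 11.2. *Gm4450*, which shares 71.9% of its words with both, was still counted in full there. The sum of *Hsd3b2*, *Hsd3b3* and *Hsd3b5*, the members with at least 50% of their words to themselves, had a ratio of 7.01. The 4 genes of the reductase type (*Hsd3b4*, *Hsd3b5*, *Gm4450* and *Gm10681*) had a summed ratio of 14.3 [13.8 to 14.9], against 6.87 [6.48 to 7.28] for *Hsd3b2* with *Hsd3b3*. The lower sum follows *Hsd3b3* (3.84), since *Hsd3b2* alone had 17.4, above each gene of the reductase type. The ratios thus did not separate the types. The sum of 14.3 holds both *Hsd3b4* and *Gm10681* in full.

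**Figure D3:**
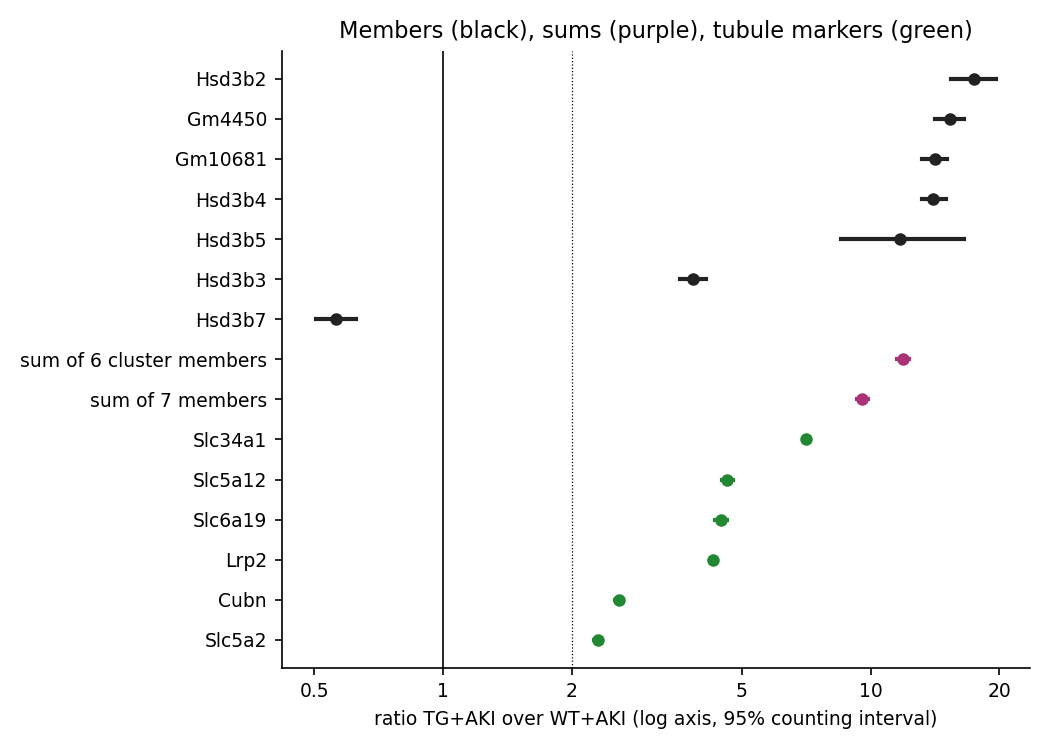
Ratio of TG+AKI over WT+AKI (log axis) with 95% intervals of the counting error for each listed member (black), the 2 sums (purple) and the 6 proximal tubule markers (green), with the dotted line at 2-fold. *Hsd3b2*, *Gm4450*, *Gm10681*, *Hsd3b4* and *Hsd3b5* lie between 11.7 and 17.4, *Hsd3b3* lies at 3.84 among the markers, and *Hsd3b7* lies below 1.

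The make-up of the family differed between the libraries in a way that no scaling can change, since shares are taken within a library. The reductase type held 53.4% of the family reads in WT+AKI [52.1 to 54.8] and 80.2% in TG+AKI [79.8 to 80.6]. With *Hsd3b4* and *Gm10681* counted once these shares were 42.1% and 72.2%. *Hsd3b3* held 20.0% in WT+AKI [18.9 to 21.1] and 8.04% in TG+AKI [7.77 to 8.31], and *Hsd3b7* held 20.8% [19.7 to 21.9] and 1.23% [1.12 to 1.34]. The share of *Hsd3b2* was 5.77% [5.15 to 6.44] in WT+AKI and 10.5% [10.2 to 10.8] in TG+AKI. That of *Hsd3b5* was 0.807% [0.582 to 1.09] and 0.990% [0.894 to 1.09], and these intervals overlap. Taken per kilobase of the longest transcript, the share of *Hsd3b2* was 3.27% and 5.22% and that of *Hsd3b3* 8.79% and 3.10%, with the same direction for each.

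**Figure D4:**
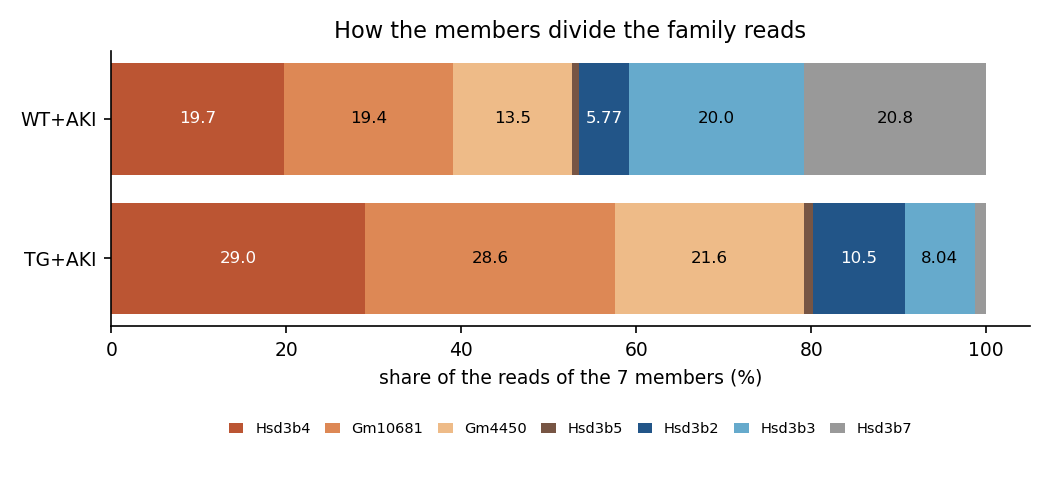
Share of the reads of the 7 listed members that fell on each member, in percent, in the WT+AKI and TG+AKI libraries. The reductase type (the 4 leftmost segments, *Hsd3b4*, *Gm10681*, *Gm4450* and *Hsd3b5*) makes up 53.4% of the WT+AKI bar and 80.2% of the TG+AKI bar, and *Hsd3b7* makes up 20.8% and 1.23%.

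Levels of different members were compared per kilobase of the longest annotated transcript. In TG+AKI the level per kilobase was 211 for *Hsd3b4*, 208 for *Gm10681*, 151 for *Gm4450*, 33.3 for *Hsd3b2*, 19.8 for *Hsd3b3*, 7.49 for *Hsd3b5* and 6.29 for *Hsd3b7*. In WT+AKI the order was *Hsd3b4* at 15.0, *Gm10681* at 14.8, *Hsd3b7* at 11.2, *Gm4450* at 9.91, *Hsd3b3* at 5.15, *Hsd3b2* at 1.92 and *Hsd3b5* at 0.640. *Hsd3b4* and *Gm10681*, of equal length, differed by 1.02 and 1.01 times in reads, and their order is not meaningful. The longest transcript of *Hsd3b3* is a non-coding form of 4766 bases, and with its coding transcript of 1533 bases *Hsd3b3* stood at 16.0 in WT+AKI, above *Hsd3b4*, and at 61.4 in TG+AKI, above *Hsd3b2*. All reads of a gene were also divided by the length of the 100-base words of its longest transcript found in no other gene. This gave 37.4 and 571 for *Gm4450*, 33.7 and 18.9 for *Hsd3b7* and 5.26 and 20.2 for *Hsd3b3*. The longest transcripts of *Hsd3b7* and *Hsd3b3* hold 759 and 4667 such words. Their coding transcripts, not used for these values, hold 109 and 1221. *Hsd3b4* and *Gm10681* have no such words, yet had 11256 and 11102 reads in TG+AKI, so reads on shared words may have been counted. In that case these values overstate the level of genes that share many words, such as *Gm4450* and *Hsd3b7*. The order of the members thus depends on the length assumed.

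The 8 members other than *Hsd3b7* lie head to tail on the minus strand of chromosome 3, over 414 kb (chr3:98445675-98859794 of GRCm38.p6), with 7 pseudogenes between them. From the low coordinates upward the order is *Gm4450*, *Hsd3b4*, *Gm10681*, *Hsd3b5*, *Hsd3b2*, *Hsd3b3*, *Hsd3b6* and *Hsd3b1*. Of the 33 other genes annotated inside the cluster or within 500 kb of it, 8 were listed. *Hao2*, an oxidase of 2-hydroxy acids in kidney peroxisomes, lies 14.7 kb from the end at *Hsd3b1*. It stood at 94.5 in the WT+AKI library against 526 in TG+AKI, a ratio of 5.57 [5.38 to 5.77]. It was the 1 neighbour past 2-fold higher.

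At the other end the neighbours named here did not follow the cluster. *Zfp697*, a zinc finger gene 13.7 kb from *Gm4450*, stood at 86.3 and 92.1, a log2 difference of 0.092 that turned to -0.18 with equal totals and was -0.051 where the median ratio was set to 1. *Phgdh*, an enzyme of serine synthesis 106 kb away, had 16.7 and 14.0, and *Notch2*, a receptor gene 295 kb away, had 60.3 and 47.2, both short of 2-fold. The long non-coding gene *Gm52610* had 44 and 57 reads, *Wars2*, a mitochondrial tryptophan tRNA ligase 280 kb beyond the other end, had values of 11.7 and 17.4, and *Gm5853*, the 1 listed pseudogene inside the cluster, had 6 reads in each library.

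**Figure D5:**
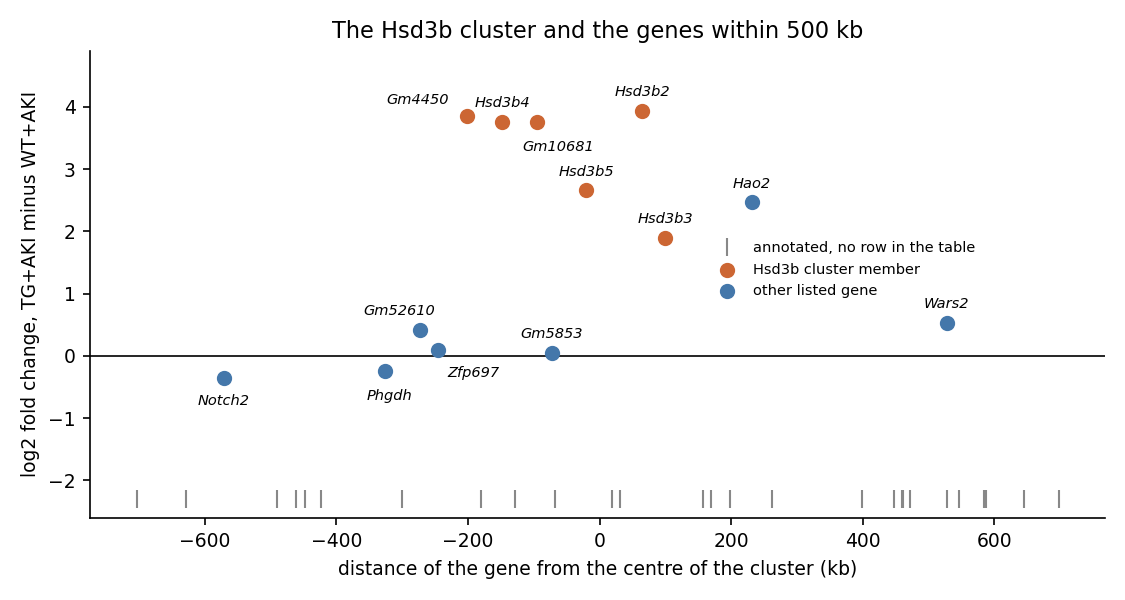
Log2 fold change (TG+AKI minus WT+AKI, log2(value + 1)) of listed genes against their distance from the centre of the cluster in kb, with ticks along the bottom for annotated genes without a row. The 6 cluster members lie between 1.90 and 3.94 and *Hao2* at 2.47, and the other neighbours shown lie between -0.35 and 0.53. With the libraries scaled to the same total or to a median ratio of 1, *Zfp697* falls just under 0.

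Markers of the proximal tubule moved with the cluster, and in whole kidney RNA more or fewer cells of a type cannot be told apart from more or less RNA per cell. All 6 were higher in TG+AKI, with a median log2 difference of 2.12 beside 0.014 over all compared genes. *Slc34a1*, the phosphate transporter, stood at 764 and 5397, and *Lrp2*, the endocytic receptor megalin, at 644 and 2754. *Cubn* had a log2 difference of 1.36, *Slc6a19* of 2.15 and *Slc5a2* of 1.20, and *Slc5a12* stood at 140 and 648. Summed, the 6 markers had a ratio of 4.84 [4.81 to 4.88].

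Set against these markers within each library, the cluster had 44.4 reads per 1000 marker reads in WT+AKI and 109 per 1000 in TG+AKI, a change of 2.46 times. *Hsd3b3* had 11.2 and 8.88 reads per 1000, and *Hsd3b7* had 11.7 and 1.36. Relative to these markers the cluster as a whole was higher, and *Hsd3b3* was at 0.792 of its WT+AKI level. *Slc34a1* (ratio 7.06) gave 32412 of the 92815 marker reads in WT+AKI and 178720 of 351177 in TG+AKI. The ratio of *Hsd3b3* (3.84) was above those of *Cubn* (2.58) and *Slc5a2* (2.30). It was below those of *Lrp2* (4.27), *Slc6a19* (4.47), *Slc5a12* (4.62) and *Slc34a1*. Set against the summed reads of the 4 markers of the late proximal tubule (S3) instead, the cluster had 96.5 and 579 reads per 1000. *Hsd3b3* had 24.4 and 47.1, a change of 1.93 times, so the direction of *Hsd3b3* turns on the markers chosen. *Atp11a* alone gave 37029 of those 42686 marker reads in WT+AKI and 42870 of 66171 in TG+AKI, so this is mostly a comparison to *Atp11a*. The ratio of *Atp11a* was 1.48. The ratio of *Slc7a13* (13.1) was above those of the cluster (11.9) and *Hsd3b3* (3.84). That of *Slc22a7* (3.53) was near that of *Hsd3b3*, and that of *Slc22a13* was 1.28. Of the 4 S3 markers, 2 were higher, *Slc7a13* from 40.7 to 534 (ratio 13.1 [12.5 to 13.8]) and *Slc22a7* from 22.5 to 79.7. *Atp11a* and *Slc22a13* differed by 0.57 and 0.36 on the log2 scale. The injury markers *Havcr1* (1169 in WT+AKI, 2.78 in TG+AKI) and *Lcn2* (250 and 1.87), named after their values were seen, ran the other way. The part of tubule content or injury in the values of the family was not tested.

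Adrenal tissue can adhere to a kidney, and its cortex is rich in *Hsd3b1* and *Hsd3b6*. Of 8 adrenal cortex markers, 6 were without a row, among them *Cyp11a1*, *Cyp11b1*, *Cyp21a1* and *Nr5a1*. The other 2, *Star* (91 and 48 reads) and *Mrap* (31 and 11 reads), were at values between 0.332 and 2.15, with fewer reads in TG+AKI. The 4 Leydig cell markers were without a row or at no more than 8 reads (*Insl3* 8 and 5, *Cyp17a1* 8 and 4). Of 9 liver markers, 3 were without a row, and *Alb*, at 0.802 and 8.27, and *Apoa1*, at 0.991 and 0.996, stayed under 10. *Alb* had 34 and 274 reads, a ratio of 10.3 [7.21 to 15.2], whereas the ratios of *Apoa1* and *Apoa2*, also under 10, were 1.01 and 1.63. Of the 3 liver markers compared, *Ttr* was higher (22.8 and 75.5), *Apoc3* lower (21.5 and 8.15), and *Serpina1a* had 68.8 and 47.8. No listed gene had under 1 read in either library, so a gene without a row may have had reads in 1 of them.

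The compared genes of hormone synthesis did not move as the cluster did. Of the 13 genes of the steroid synthesis list, 8 were listed and 6 compared, and none was past 2-fold in either direction, with a median of 0.38 that turned to -0.087 with equal totals. *Cyb5a*, the electron donor of several steroid enzymes, stood at 406 and 745, and *Por*, the reductase that feeds cytochromes P450, at 275 and 257. *Fdx1*, the ferredoxin of mitochondrial P450 enzymes, had 29.9 and 54.9, and *Tspo*, of the outer mitochondrial membrane, 87.8 and 61.0. *Cyp11a1*, which makes pregnenolone, the substrate of the classical type, was without a row. So were *Cyp21a1*, *Cyp11b1*, *Cyp11b2* and *Cyp19a1*, the aromatase, and *Cyp17a1* was under the filter with 8 and 4 reads. The compared genes thus do not include these enzymes.

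Of the genes named as 17-beta-hydroxysteroid dehydrogenases, 9 of 12 were listed and 7 compared, and none was past 2-fold. Their median was 0.22, and -0.078 with equal totals. *Hsd17b4*, a multifunctional enzyme of peroxisomes, had 310 and 299, *Hsd17b11* had 104 and 148, *Hsd17b12* had 75.0 and 69.4, *Hsd17b10* had 62.9 and 85.7, and *Hsd17b8* had 29.7 and 56.0. *Hsd17b3*, *Hsd17b6* and *Hsd17b13* were without a row, and *Hsd17b1* was under the filter with 14 and 9 reads. The genes of this list share a name, and their activity on steroids was not measured.

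Among other steroid dehydrogenases and reductases, 11 of 17 were compared, 3 were higher and 2 lower, with a median of 0.11 that turned to -0.17 with equal totals and was -0.029 where the median ratio was set to 1. *Akr1c21*, a 17-alpha-hydroxysteroid dehydrogenase, stood at 228 in the WT+AKI library against 1299 in TG+AKI, a ratio of 5.70 [5.58 to 5.83]. *Akr1c14*, a 3-alpha-hydroxysteroid dehydrogenase, stood at 70.5 and 219, and *Akr1d1*, the 5-beta reductase, at 21.7 and 59.1. The 2 lower genes were *Akr1c13* (37.2 and 12.3) and *H6pd* (590 and 271), which supplies NADPH to *Hsd11b1*. *Hsd11b1* itself, which reactivates glucocorticoids, had 96.5 and 128.

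In the list of steroid sulfation and glucuronidation, 8 of 14 were compared, 4 were higher and 0 lower, with a median of 0.92. Of the higher genes, 3 code for glucuronosyltransferases of the 2b group, whose members attach glucuronic acid to steroids and drugs. *Ugt2b37* stood at 5.85 and 102, a ratio of 17.5 [15.4 to 20.0], *Ugt2b38* at 79.9 and 531, and *Ugt2b5* had a log2 difference of 2.37. The fourth was *Ugt8a*, which makes galactolipids, at 44.9 and 120. *Sult1d1*, a sulfotransferase, had 1096 and 1494, and *Ugt2b34* had 71.2 and 46.2.

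*Hsd3b7* acts in bile acid synthesis, so other genes of that pathway were set beside it. Of 16 genes, 8 were compared, 3 were higher and 0 lower, with a median of 0.80. The 3 were *Amacr*, the racemase of the side chain (50.4 and 174), *Akr1d1* and *Slc27a2*, an acyl-CoA ligase of peroxisomes (2207 and 4422), which lay at the threshold and was short of it with equal totals, a median ratio of 1 or a pseudocount of 10. *Scp2* had 523 and 816 and *Acox2* had 91.3 and 146. *Hsd17b4* had 310 and 299. *Ch25h*, which hydroxylates cholesterol, was under the filter with 199 and 23 reads, and counted as lower with a filter of 1 or none. *Cyp7a1* and *Cyp8b1*, the liver hydroxylases, were without a row.

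Genes regulated by androgen in kidney were mostly higher: 6 of 8 were past 2-fold and 0 lower, with a median of 2.15. *Kap*, the kidney androgen-regulated protein, stood at 3958 and 17611, *Cyp4b1* at 535 and 3131, *Cyp2e1* at 130 and 1422, and *Slco1a1*, an organic anion transporter, at 23.4 and 222. *Odc1*, the first enzyme of polyamine synthesis, had 394 and 418. The Y-linked genes *Ddx3y* (66.4 and 72.8) and *Eif2s3y* (72.4 and 72.4), named after their values were seen, were present at like levels in both libraries. Set against the summed reads of the 8 androgen-regulated genes, the cluster had 18.9 reads per 1000 in the WT+AKI library against 50.0 in TG+AKI. *Kap* alone gave 167812 of those 218270 reads in WT+AKI and 583207 of 766470 in TG+AKI, so this is mostly a comparison to *Kap*.

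Of 9 steroid receptors, 6 were compared. *Esr1*, the estrogen receptor alpha, was higher, at 4.32 and 14.6, and 0 were lower. *Nr3c1*, the glucocorticoid receptor, had 95.1 and 109, and the membrane proteins *Pgrmc1* and *Pgrmc2* had 216 and 206 and 42.8 and 49.7. Of 11 regulators, 6 were compared, 1 was higher and 1 lower, with a median of 0.11. *Hnf4a*, a nuclear receptor of the proximal tubule, stood at 397 and 1072. *Nr4a1*, an immediate early nuclear receptor, stood at 19.6 and 5.19. *Ppara* had 187 and 145, and *Nr1h4*, the bile acid receptor, had 106 and 134. The median of the regulators turned to -0.16 with equal totals and was -0.027 where the median ratio was set to 1.

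Outside the family 2175 genes reached a value of 100 in either library. Of these, the 5 whose log2 ratio was nearest to that of the summed family (3.25), over the 2 libraries, were *Slco1a1*, *Acmsd*, *Abca13*, *Slc22a30* and *Dpyd*. Their ratios were 9.50, 9.25, 9.24, 9.16 and 9.98, beside 9.54 for the family. *Acmsd* stood at 11.7 and 108, *Abca13* at 14.8 and 137, *Slc22a30* at 26.4 and 242, and *Dpyd* at 11.0 and 110. With 2 points per gene this likeness is that of a single ratio.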

How the data were processed

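Whole kidney RNA of 1 library per group was prepared with a stranded mRNA kit and sequenced. The submitters' processing notes name STAR 2.7.3a, HTSeq, DESeq2, edgeR, Cufflinks 2.2.1, FastQC and build mm10. The strand setting and the treatment of multiply matching reads are not given in the sources used here. The deposited signal values are read counts per gene that the authors divided by a library factor. Every value (100%, tolerance 1e-06 reads) was a whole multiple of the smallest of its column, so reads were recovered: 1 read is worth 0.0236 in the WT+AKI library against 0.0302 in TG+AKI, and a value of 10 is 424 and 331 reads. The columns sum to 909104 and 1099984. No column of other samples was present.

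The members and lists were chosen with earlier results of these data known. Differences were taken on log2(value + 1). The pseudocount of 1 understates differences of low genes. Intervals are 95% Clopper-Pearson intervals of the reads, and those of a ratio between 2 members' ratios are on the log scale. They take each read as counted for 1 gene, which was not tested. No p-value was computed. The interval code was tested on simulated data. Python 3.11.15 with numpy 2.4.6, pandas 2.3.3, scipy 1.17.1, Biopython 1.88 and matplotlib 3.10.9 was used. Gene IDs were matched to RefSeq of GRCm38.p6 (19780 of 19829, 99.8%), and transcripts came from GENCODE of GRCm38, the same assembly as mm10.

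Genes named are every listed member, every listed gene within 500 kb of the cluster, up to 4 genes of the highest mean value and 2 of the largest difference from each of 13 lists (of the adrenal, liver and Leydig lists the defining ones), the 5 genes nearest to the family in ratio, and *Inmt*. *Ugt2b5*, *Akr1c13*, *Slc5a2*, *Slc6a19*, *Havcr1*, *Lcn2*, the Y-linked genes and the genes of the closing observations were named after their values were seen. Some genes that the rule would name are not reported here. Alternatives were 3 other scalings, 2 other pseudocounts, 2 other filters, other sums of members and other lengths.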

Additional observations from a re-analysis of the deposited data

How the results depend on the processing

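The 6 cluster members kept their direction under each scaling and pseudocount run, and 6 were past 2-fold under each alternative but a pseudocount of 10, which left 5 (*Hsd3b5* at 0.97). The summed family ratio of 9.54 was 7.89 with both libraries scaled to the same total, 8.64 with a median ratio of 1, 8.44 without *Hsd3b4*, 8.44 with *Hsd3b4* and *Gm10681* counted once and 7.01 over members with at least 50% of words of their own. The cluster ratio of 11.9 was 9.84 with equal totals, 10.8 with a median ratio of 1 and 11.2 with *Hsd3b4* and *Gm10681* counted once. Size factors by the DESeq2 method gave 9.65 and 12.0. With equal totals 1 member, *Hsd3b7*, counted as lower. These scalings shifted every log2 ratio by -0.27 (equal totals), -0.14 (median ratio of 1) and 0.016 (DESeq2), by construction.

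Among the lists, the 2-fold higher count of bile acid synthesis was 2 in place of 3 with equal totals, a median ratio of 1 or a pseudocount of 10, and that of the proximal tubule 5 in place of 6 with equal totals. With a pseudocount of 10 the receptors had 0 higher in place of 1, and the regulators and the liver list each had 0 lower in place of 1. With a filter of 1 or none, other steroid dehydrogenases had 5 higher in place of 3, the liver list 2 in place of 1, and bile acid synthesis 1 lower in place of 0. Reversals of direction were of list medians or of *Zfp697*, and were small but for the liver list. With equal totals they were *Zfp697* (-0.18) and the lists of steroid synthesis (-0.087), 17-beta-hydroxysteroid dehydrogenases (-0.078), other steroid dehydrogenases (-0.17) and regulators (-0.16). With a median ratio of 1 they were *Zfp697* (-0.051), other steroid dehydrogenases (-0.029) and regulators (-0.027). Without a filter the regulators had -0.083 and the liver list 0.24, and at a filter of 1 the liver list had 0.48, in place of -0.51, as more genes were counted. No paired analysis was possible because each group has 1 library. No library could be left out for the same reason. Precision is limited by having 1 library per group, and for *Hsd3b5* also by its 42 reads in WT+AKI. The sums with *Hsd3b4* and *Gm10681* counted once or over members with words of their own, and the 1533-base transcript of *Hsd3b3*, were chosen after seeing the data.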

Other observations

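The palindrome TTAATNATTAA seen before *Gm4450*, *Hsd3b4* and *Gm10681* was looked for in the promoters of the other compared genes, a search chosen after the members' values were known. Outside the family 10 compared genes held it, of 8161 with a promoter. Of these 10, 4 were higher in TG+AKI, beside 5.58% of the 8161, and 1 was lower. The higher ones were *Prodh2*, of hydroxyproline breakdown (24.9 in WT+AKI and 89.8 in TG+AKI), *Cltrn*, the collectrin of amino acid transport (545 and 1718), *Rab3il1* (13.3 and 40.5) and *Slc10a2*, the bile acid transporter (53.2 and 123). *Gc*, the vitamin D binding protein, was lower, at 578 and 34.6. The other 5 were short of 2-fold, among them *Zfp871* (97.9 and 170) and *Pkhd1* (117 and 136). The same count was made for the other motifs. Of genes with the HNF4 site 10 of 42 were higher (23.8%), with the SF-1 site 10 of 103 (9.71%) and with the TATA box 68 of 728 (9.34%). The androgen and glucocorticoid receptor palindrome and the direct repeat, in 2 and 4 compared genes, had 0 higher. With 10 genes for TTAATNATTAA and 1 library per group these are values only.

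Low genes of the same enzyme classes, under the filter of 10 and so in no count above, had few reads. *Akr1c20* had 7 reads in WT+AKI and 47 in TG+AKI, *Ugt2a3* had 10 and 51, and *Hsd17b14* had 52 and 109. *Srd5a2*, a steroid 5-alpha reductase, had 118 and 268.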
